A study of Homo sapiens with 6 samples.

Results

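MAR-seq sequences the DNA that stays with the nuclear matrix, and in untreated H1 human pluripotent stem cells (hPSC) it gave a list of 40106 regions of 400 bp. Of these, 32021 regions (79.8%, 95% exact binomial interval 79.4 to 80.2%) shared no base with any region listed for cells that carried a short hairpin RNA. These hPSC-only regions covered 12.8 Mb and are described here. They were chosen by that absence of overlap, so the 79.8% is the result of the rule and not a finding. They make up 32021 of the 115751 regions in the 3 lists together.

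The study compared 3 groups of H1 cells with 2 samples each, and each group had 1 list. H1 is an established human embryonic stem cell line, grown here without feeder cells on a coated surface. The hPSC group received no treatment, the shHNRNPU group carried a hairpin against HNRNPU, and the shLUC group carried a hairpin labelled LUC, the usual name for luciferase, a target that human cells lack. The shLUC list held 39368 regions and the shHNRNPU list 36277. With 1 list per group there is no replicate spread, so no difference between conditions was tested. Presence of a hairpin, read depth and the calling of the lists cannot be told apart as sources of a difference between hPSC and both hairpin groups.

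The nuclear matrix is the network of protein and RNA that is left when a nucleus is stripped of soluble material and most of its DNA is cut away. Stretches of DNA that resist this release are called matrix attachment regions, and they are classically rich in A and T, although DNA kept by the matrix in a given preparation can also include transcribed genes and their start sites. HNRNPU, also known as scaffold attachment factor A, binds RNA and such DNA and is abundant in the matrix. In this protocol, detergent-extracted nuclei were fixed and digested with MspI, HaeIII, RsaI, AluI, BamHI and PvuII, and the DNA that stayed was sequenced.

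A total of 8 promoters show what lay under hPSC-only regions at named genes. They are the promoters of listed pluripotency, nuclear matrix and germ layer genes with the largest overlap, among 23 touched of 80 such promoters examined (over all genes, 19.9% of promoters were touched). Each line gives the bases, within the 250 before the gene start, that lie inside the hPSC-only region, which can reach farther upstream. They are written 5′ to 3′ on the gene's strand, from RefSeq GRCh38.p14. Capitals mark the letters cut by the enzymes used, CCGG for MspI, GGCC for HaeIII, GTAC for RsaI, AGCT for AluI and GGATCC for BamHI, and PvuII's CAGCTG contains AGCT.
SOX1, chr13:112066899-112067148, plus strand: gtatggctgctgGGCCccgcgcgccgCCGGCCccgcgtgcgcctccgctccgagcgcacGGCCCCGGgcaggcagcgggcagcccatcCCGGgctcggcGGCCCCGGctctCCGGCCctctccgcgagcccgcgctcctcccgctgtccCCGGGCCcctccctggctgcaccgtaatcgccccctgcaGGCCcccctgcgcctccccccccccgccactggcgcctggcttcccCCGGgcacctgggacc
TMPO, chr12:98515323-98515572, plus strand: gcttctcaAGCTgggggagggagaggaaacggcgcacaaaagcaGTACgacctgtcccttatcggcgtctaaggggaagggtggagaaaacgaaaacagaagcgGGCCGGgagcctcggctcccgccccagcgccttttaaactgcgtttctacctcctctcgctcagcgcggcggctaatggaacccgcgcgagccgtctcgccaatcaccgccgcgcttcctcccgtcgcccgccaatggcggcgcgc
ZFP42, chr4:187995521-187995770, plus strand: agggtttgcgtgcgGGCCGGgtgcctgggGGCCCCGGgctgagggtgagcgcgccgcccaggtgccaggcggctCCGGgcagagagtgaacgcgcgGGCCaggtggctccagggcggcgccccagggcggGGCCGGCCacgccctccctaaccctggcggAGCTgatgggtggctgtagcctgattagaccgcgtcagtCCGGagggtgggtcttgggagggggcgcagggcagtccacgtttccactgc
SATB1, chr3:18445593-18445842, minus strand: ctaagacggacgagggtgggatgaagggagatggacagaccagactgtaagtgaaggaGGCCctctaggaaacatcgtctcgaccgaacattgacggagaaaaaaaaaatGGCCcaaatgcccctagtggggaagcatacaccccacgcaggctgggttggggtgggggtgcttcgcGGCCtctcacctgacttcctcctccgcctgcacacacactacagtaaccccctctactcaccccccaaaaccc
CXCR4, chr2:136118156-136118399, minus strand: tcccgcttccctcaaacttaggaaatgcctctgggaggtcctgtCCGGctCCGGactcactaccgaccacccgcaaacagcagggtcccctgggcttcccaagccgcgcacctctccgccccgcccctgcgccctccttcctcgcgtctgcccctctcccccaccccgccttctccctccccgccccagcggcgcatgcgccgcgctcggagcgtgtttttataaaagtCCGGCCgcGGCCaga
BANF1, chr11:66002253-66002486, plus strand: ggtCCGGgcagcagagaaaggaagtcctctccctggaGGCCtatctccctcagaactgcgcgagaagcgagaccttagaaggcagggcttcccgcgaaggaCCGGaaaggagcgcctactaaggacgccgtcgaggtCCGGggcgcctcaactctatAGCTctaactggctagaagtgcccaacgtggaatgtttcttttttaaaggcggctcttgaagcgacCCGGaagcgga
LMNA, chr1:156082398-156082572, plus strand: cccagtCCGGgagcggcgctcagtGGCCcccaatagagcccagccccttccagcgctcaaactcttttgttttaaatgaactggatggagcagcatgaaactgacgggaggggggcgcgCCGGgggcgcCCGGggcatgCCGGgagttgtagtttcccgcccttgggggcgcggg
TOP2A, chr17:40417897-40418067, minus strand: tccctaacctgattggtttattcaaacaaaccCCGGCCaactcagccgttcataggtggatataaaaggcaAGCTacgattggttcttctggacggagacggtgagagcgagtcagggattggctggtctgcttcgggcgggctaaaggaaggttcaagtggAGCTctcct

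The stretch before SOX1, which codes for a neural transcription factor, had 82% G+C and 14 cut sites. That of TOP2A, the topoisomerase of dividing cells, had 52.0% G+C and 4 cut sites. TMPO, BANF1 and LMNA code for proteins of the nuclear lamina and its partners, and their stretches held 64.8%, 58.5% and 66.3% G+C. SATB1, which codes for a protein that binds matrix attachment DNA, had 57.2% G+C with 3 cut sites, all GGCC. The stretch of ZFP42 (also called REX1), a marker of pluripotent cells, had 74.4% G+C and 11 cut sites, and that of CXCR4, a chemokine receptor, had 68.9% G+C and 5. All 8 stretches thus held more G+C than A+T, and each could be cut several times by the mix. Promoters in general were alike in this. Over all promoter windows of 300 bases, the medians were 62.7% G+C and 7 cut sites. On the 23 chromosomes with promoter windows, 9.25% of hPSC-only regions overlapped one. The sequences of the regions themselves were not read, so the 8 stretches do not give the base content of the set.

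Most hPSC-only regions lay kilobases away from the nearest region of a hairpin list (a hairpin region). The median gap to the nearest shLUC or shHNRNPU region was 16.2 kb, with a middle range of 6.63 to 34.9 kb between the quartiles. A hairpin region lay within 1 kb of 1737 hPSC-only regions (5.42%) and within 5 kb of 6247 (19.5%). At the far end, 1481 regions (4.63%) had none within 100 kb, and the largest gap was 3.09 Mb. At the edge of the rule, 3 hPSC-only regions touched a hairpin region end to end and 123 lay at most 50 bp away. On the other side, 253 of the 8085 hPSC regions left out overlapped a hairpin region by 1 to 50 bp. The regions left out had a median overlap of 367 bp, and 3325 of them (41.1%) had the same coordinates in a hairpin list. Of those 8085, 3795 overlapped both hairpin lists, 1809 shLUC only and 2481 shHNRNPU only.

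**Figure D1:**
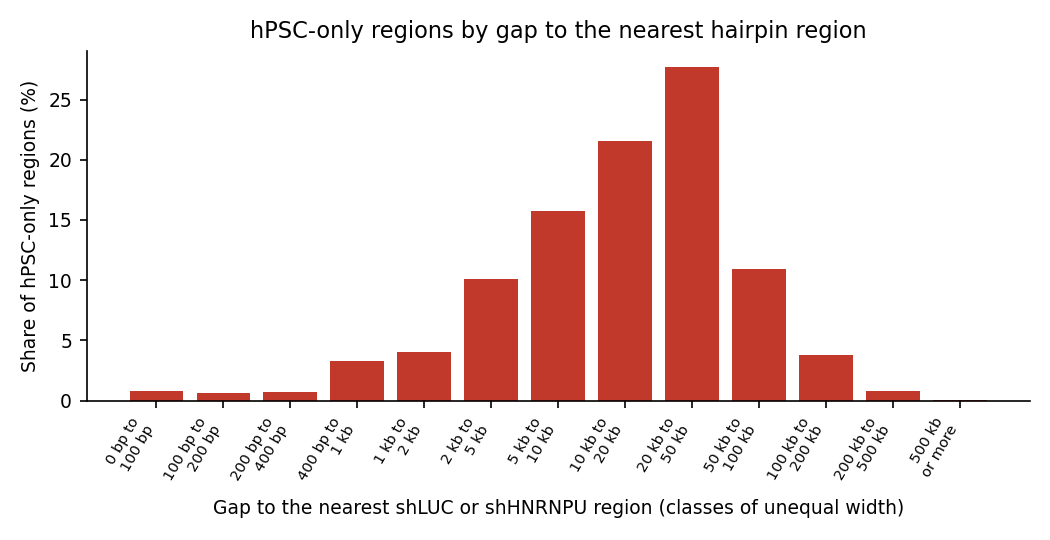
Share of the 32021 hPSC-only regions (y axis, %) by the gap in bp or kb to the nearest region of either hairpin list (x axis, classes of unequal width). The class from 20 to 50 kb holds 27.7% of the regions, and the classes under 400 bp hold under 1% each.

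The hPSC-only regions stood apart from each other as well. Neighbouring hPSC-only regions had a median gap of 50.7 kb, with 21.9 and 106.9 kb as the quartiles. Of 31997 neighbouring pairs, 854 (2.67%) were under 5 kb apart and 161 under 1 kb, and the closest pair was 79 bp apart. They therefore formed few runs or blocks.

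Their number followed the gene content of the genome. On autosomes there were 10.99 hPSC-only regions per Mb, from 7.69 on chromosome 21 to 18.3 on chromosome 19, the most gene-dense chromosome. Chromosome X had 2.70 per Mb. Over the 22 autosomes, the density correlated with protein-coding genes per Mb (Spearman rho 0.82, Pearson r 0.91), and for regions of both hairpin lists that the hPSC list lacks the values were 0.76 and 0.83. These are descriptions over chromosomes that share their lists. In windows of 1 Mb without a protein-coding gene, the mean was 3.90 hPSC-only regions (SD 2.72 over 272 windows). In windows with 20 or more such genes it was 19.4 (SD 6.54 over 232 windows). The share of hPSC regions that were hPSC-only moved little along this scale, from 78.1 to 81.9% over 5 classes of windows, and from 77.9% on chromosome 6 to 83.2% on chromosome 20.

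**Figure D2:**
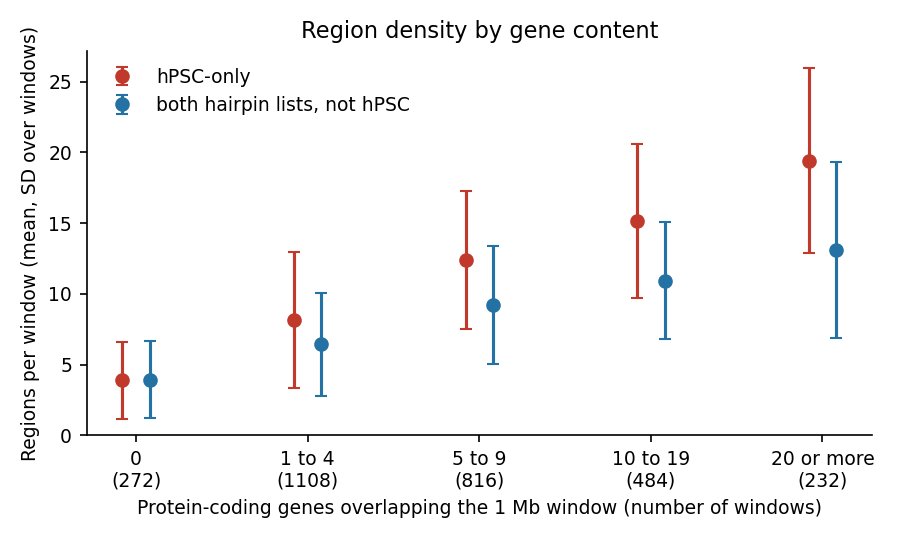
Regions per 1 Mb window (y axis, mean with SD over windows) by the number of protein-coding genes that overlap the window (x axis, number of windows in brackets), for hPSC-only regions and for regions of both hairpin lists that are absent from hPSC. Means of hPSC-only regions rise from 3.90 to 19.4, and those of the other set from 3.94 to 13.1.

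The 5 windows with most hPSC-only regions were gene-dense. The window chr19:55000001-56000000, which holds NLRP genes, ZNF genes and the troponin genes TNNI3 and TNNT1, had 36. The windows chr11:62000001-63000000, chr17:7000001-8000000 and chr19:12000001-13000000 had 34 each, and chr19:49000001-50000000 had 32. For comparison, the shLUC list held 24, 22, 29, 14 and 25 regions in these windows, in the order given, and the shHNRNPU list 23, 19, 30, 19 and 28. The median over the 2912 windows that hold any region was 11 hPSC-only regions.

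By position, 4746 hPSC-only regions (14.8%, interval 14.4 to 15.2%) were centred at most 1 kb from either boundary of a protein-coding gene, called a gene end here. The intervals here are 95% exact binomial intervals, which cover counting error only, and regions share their list and follow gene content along the genome, so they are not replicates. A further 42.1% lay deeper in a protein-coding gene body, 11.9% only in a non-coding gene or pseudogene, and 31.2% outside annotated genes. The share near a gene end was 45.6% for the 3795 hPSC regions found in all 3 lists, 29.2% for the 4290 found in 1 hairpin list and 9.12% for the 24066 regions of both hairpin lists that the hPSC list lacks. The hPSC-only share thus lay between those of the regions kept in every list and of those in both hairpin lists without hPSC. Over the whole lists the share near a gene end was 19.3% for hPSC, 13.0% for shLUC and 14.4% for shHNRNPU. In a gene body lay 50.6% of hPSC-only centres. The values were 60.2% in all 3 lists, 56.0% with 1 hairpin list and 55.0% in both hairpin lists without hPSC.

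Gene starts, known with strand on 23 chromosomes, accounted for most of this. On these, 3682 of 30524 hPSC-only regions (12.1%) had their centre within 1 kb of a protein-coding gene start, and 1.85% within 1 kb of the far end. The shares near a start were 39.1% in all 3 lists, 25.1% with 1 hairpin list and 6.48% in both hairpin lists without hPSC. Within 1 kb of a start, hPSC-only centres had a median offset of 5 bp, with quartiles at -144 and 170 bp, where negative is upstream. Regions of all 3 lists had a median offset of 95 bp, and those of both hairpin lists without hPSC 152 bp. Upstream of the start lay 48.9% of the hPSC-only centres (interval 47.3 to 50.5%), 33.7% of those in all 3 lists and 26.8% of those in both hairpin lists without hPSC. The hPSC-only regions at starts thus sat about evenly on both sides, and the other sets sat more inside the gene. Along the bodies of genes, away from the ends, they were even, with 19.3 to 20.5% in each of 5 equal parts.

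**Figure D3:**
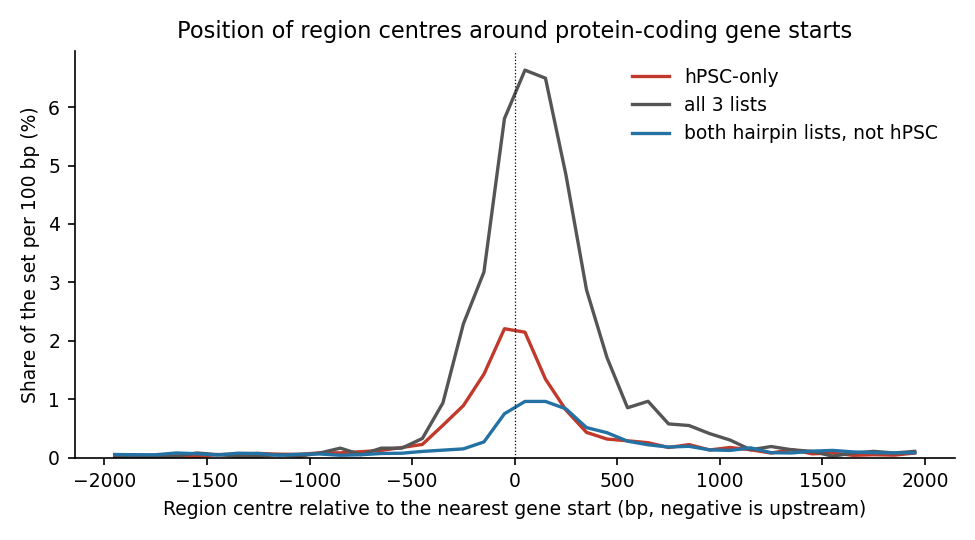
Share of each set of regions per 100 bp (y axis, %) by the position of the region's centre relative to the nearest protein-coding gene start (x axis, bp, negative upstream), on 23 chromosomes. The hPSC-only curve is centred near 0, with a median offset of 5 bp within 1 kb, and the curves of all 3 lists and of both hairpin lists without hPSC are shifted into the gene, with medians of 95 and 152 bp.

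Promoter windows, from 250 bases before to 50 after the start, were touched by an hPSC-only region at 3148 of 15842 genes (19.9%). At 36 of these a hairpin region touched the window too, beside the hPSC-only region. The whole hPSC list touched 5124 windows, shLUC 2584 and shHNRNPU 2773. Base composition differed between the sets. The windows under hPSC-only regions had a median of 63.7% G+C (quartiles 58.3 and 69.0%), close to the 62.7% of all windows, and windows under regions of all 3 lists had 70.3% and under both hairpin lists without hPSC 73.0%. Windows over 70% G+C made up 19.9% of the hPSC-only ones, 51.5% and 63.0% of these 2 other sets and 25.1% of all windows. Windows under 50% G+C were 5.18% of the hPSC-only ones and 17.8% of all. The median count of CpG was 25 under hPSC-only regions, 22 over all windows, 32 in all 3 lists and 34 in both hairpin lists without hPSC.

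**Figure D4:**
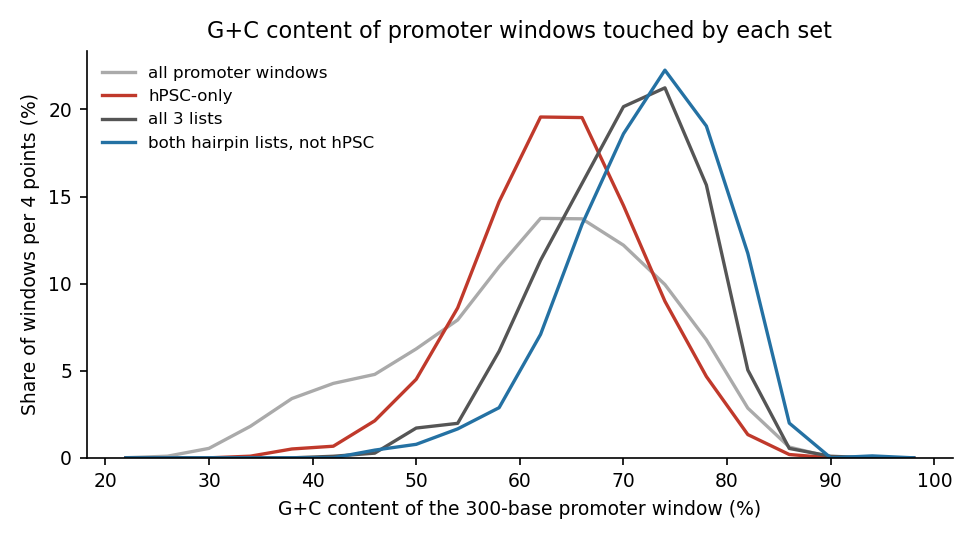
Share of promoter windows (y axis, % per 4 points of G+C) by G+C content of the 300-base window (x axis, %), for all 15842 windows and those touched by each set. The median is 63.7% for windows under hPSC-only regions, 70.3% for all 3 lists and 73.0% for both hairpin lists without hPSC.

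Motifs were counted on both strands of the same windows. CCGG, the MspI site, was in 90.2% of windows under hPSC-only regions and 75.8% of all, and GGCC in 92.2% and 85.5%. AGCT was in 73.0% and 73.3%, GTAC in 28.3% and 27.5%, GGATCC in 7.81% and 7.33%, and CAGCTG, which contains AGCT, in 17.6% and 17.7%. In all 3 lists the shares of CCGG and GGCC were 96.6% and 94.9%. The core TATA-box letters TATAAA were in 5.30% of hPSC-only windows against 9.63% of all, and the AT-rich words AATATT and ATATTA in 2.32% and 2.48% against 4.48% and 4.68%. The CCGG share was higher in the sets with higher G+C content than all windows, and the part of the enzyme mix in any list was not tested.

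At the level of genes, 9466 of 20037 protein-coding genes (47.2%) held at least 1 hPSC-only region, of which 5675 held exactly 1 and 642 held 5 or more. The share rose with length, from 15.6% of genes up to 5 kb to 97.1% of genes over 500 kb, but the number per 100 kb fell from 6.21 to 0.83. In 2855 genes there was an hPSC-only region and no hairpin region at all, and these had a median length of 18.4 kb. The 6611 genes that also held a hairpin region had a median length of 82.1 kb.

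The genes with most hPSC-only regions were long. ASTN2, which codes for a protein of neuronal migration, held 22 hPSC-only regions of 26 in the hPSC list, with 8 in shLUC and 11 in shHNRNPU. PTPRN2, a phosphatase-like protein of secretory vesicles, held 20, beside 29 shLUC regions. AUTS2, a neurodevelopmental gene, held 19. DLGAP1, a scaffold of the postsynaptic density, and RBFOX1, a splicing regulator, held 18 each. AGAP1, CNTNAP2, NAV2 and RABGAP1L held 17 each, and of these NAV2 had the fewest hairpin regions, 8 in shLUC and 6 in shHNRNPU. All 10 genes with most hPSC-only regions also held regions of both hairpin lists, 8 to 29 in shLUC and 6 to 26 in shHNRNPU.

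A smaller group was covered in hPSC and in neither hairpin list, 2855 of the 9466 genes with an hPSC-only region. Among genes of 100 to 200 kb with such a region they were 84 of 1609, and among those of 200 to 500 kb 17 of 1010. The genes named next were picked from this group for their high number of hPSC-only regions. CACNA1D, the pore subunit of an L-type calcium channel, and DMXL2, a synaptic vesicle protein, each held 7 hPSC-only regions and no hairpin region over 319.1 and 175.0 kb. C16orf96 and UPP2, a uridine phosphorylase, held 6 each. NXPH1, a neurexin ligand, PPFIA3, a liprin of synapses, SOCS5, a suppressor of cytokine signalling, and ZPBP, a sperm protein, held 5 each, and CNGB3, a channel of cone photoreceptors, held 4. Of these named genes PPFIA3 was the densest, with 15.9 per 100 kb over 31.5 kb. Among genes of at least 200 kb, with or without hairpin regions, the densest were PCDHA1, PCDHA2, JARID2, GULP1 and PCDHA4, with 3.90 to 4.42 per 100 kb. Each of these also held hairpin regions. In shLUC there were 15, 14, 8, 4 and 12, in the order given, and in shHNRNPU 13, 12, 9, 5 and 11. PCDHA1, PCDHA2 and PCDHA4 share exons, so their regions are largely the same ones.

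Pluripotency regulators held hPSC-only regions at 15 of 34 genes in the table (44.1%, interval 27.2 to 62.1%) against 47.2% of all genes and 30.3% of those of 5 to 20 kb, the class of their median length of 14.8 kb. In the whole lists, 19 (55.9%) held any hPSC region, 21 (61.8%) a shLUC region and 21 (61.8%) a shHNRNPU region. Among all genes of 5 to 20 kb the shares were 42.8%, 35.8% and 35.0%. The listed genes ran from 1.34 kb (UTF1) to 276.0 kb (JARID2), and long genes more often held a region. A single length class thus does not match the whole list. JARID2, a subunit of Polycomb complex PRC2, held 11, all at least 80.4 kb inside the gene, and the hairpin lists held 8 and 9 regions there. TRIM71, a regulator of RNA stability, held 5, and CDH1 (E-cadherin), ESRRB, a nuclear receptor of naive pluripotency, and PODXL, a surface sialomucin, held 4 each. DNMT3B, the de novo DNA methyltransferase of early development, and FGFR1 held 3, LIN28B and TERF1 2, and FGF2, NANOG, NODAL, PRDM14, SALL4 and ZFP42 1. DNMT3B, NANOG, PRDM14 and ZFP42, 4 of the 15, held no region of either hairpin list. Of all genes with an hPSC-only region, 2855 of 9466 held no hairpin region, and 1099 of 1768 at 5 to 20 kb. The rule largely sets this absence in short genes. At NANOG, a core pluripotency factor, the single region lay at chr12:7798401-7798800, 9.20 kb after the gene start and near the gene's far end. At ZFP42 it was centred 86 bp before the start, over the promoter shown above. POU5F1 held no region of any list, and SOX2 held 1 that was in all 3 lists.

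Nuclear matrix and lamina genes held hPSC-only regions at 25 of 40 genes (62.5%, interval 45.8 to 77.3%). Their median length was 41.5 kb, and 48.7% of all genes of 20 to 50 kb held one. The listed genes ran from 1.65 kb (BANF1) to 515.7 kb (SYNE1), so a single length class does not match the whole list. Among all genes, the share was 67.3% at 50 to 100 kb and 97.1% over 500 kb. SYNE2, which links the nucleus to the cytoskeleton, held 10, LMNA (lamin A/C) 5 and NUMA1, a nuclear matrix and spindle protein, 4. LBR, the lamin B receptor, and NIPBL, the loader of cohesin, held 3 each. CTCF, HNRNPD, PARP1, SAFB2, SATB1, SUN1, SYNE1 and TOP2B held 2 each, and HNRNPA2B1 held 1. PARP1, SAFB2, HNRNPK, NCL and RAD21, 5 of the 25, held hPSC-only regions and no hairpin region. Of all genes of 20 to 50 kb with an hPSC-only region, 892 of 2313 held no hairpin region. At PARP1, SAFB2 and NCL an hPSC-only region was centred 210, 123 and 147 bp after the start. HNRNPU itself, the gene targeted in the study, held no hPSC-only region. It had 1 region in the hPSC list, 1 in shLUC and 2 in shHNRNPU, and the lists hold no expression by which to check the knockdown or the identity of the cells. STAG1, a cohesin subunit, also held none, with 9 regions in shLUC and 7 in shHNRNPU.

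Regulators of germ layers and trophoblast had a lower count in the hPSC list than in either hairpin list, which was not tested. Of these genes, 10 of 35 (28.6%, interval 14.6 to 46.3%) held an hPSC-only region. Any hPSC region was held by 16 (45.7%), against 25 (71.4%) for shLUC and 26 (74.3%) for shHNRNPU. The median length of these genes was 11.0 kb. They ran from 1.68 kb (NEUROG1) to 300.5 kb (TP63), so a single length class does not match the whole list. Among all genes of 5 to 20 kb, 30.3% held an hPSC-only region, 42.8% any hPSC region, 35.8% a shLUC region and 35.0% a shHNRNPU region. The hPSC share was thus near that of genes of this class, and the hairpin shares were above it. The 10 became 6 when regions with a hairpin region within 5 kb were left out. Of the HOX genes, which set position along the body axis, 6 of 39 (15.4%) held an hPSC-only region, near the 15.6% of all genes up to 5 kb, the class of their median length of 3.79 kb. In the whole lists, 13 HOX genes (33.3%) held any hPSC region, 22 (56.4%) a shLUC region and 24 (61.5%) a shHNRNPU region. Among all genes up to 5 kb the shares were 22.4%, 19.4% and 19.2%. Their clusters are compact, so genes there share neighbours.

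Ribosomal protein and histone genes, which are short, had higher counts in the hPSC list than in either hairpin list, again with no test. The hPSC list was also the highest among all short genes, by smaller margins. Of 82 ribosomal protein genes, 34 (41.5%, interval 30.7 to 52.9%) held an hPSC-only region, 44 any hPSC region, 11 a shLUC region and 18 a shHNRNPU region. Among all protein-coding genes of 5 to 20 kb, the class that holds their median length of 5.14 kb, 30.3% held an hPSC-only region, 42.8% any hPSC region, 35.8% a shLUC region and 35.0% a shHNRNPU region. No hairpin region lay at 32 of the 34, an absence that the rule largely sets in short genes (1099 of 1768 genes of 5 to 20 kb with an hPSC-only region, and 408 of 500 up to 5 kb). Of 70 replication histone genes, which are transcribed in S phase and have a median length of 0.49 kb, 25 (35.7%, interval 24.6 to 48.1%) held an hPSC-only region, 27 any hPSC region and 4 a region of each hairpin list. The 25 became 14 when regions with a hairpin region within 5 kb were left out. Among all protein-coding genes up to 5 kb, which include most of the histone genes, 15.6% held an hPSC-only region, 22.4% any hPSC region, 19.4% a shLUC region and 19.2% a shHNRNPU region. Of 510 ZNF genes, 264 (51.8%) held one, near the 48.7% of all genes of 20 to 50 kb, the class of their median length, beside 336 for the hPSC list, 242 for shLUC and 239 for shHNRNPU. Olfactory receptor genes, silent outside the nose, were rarely covered by any list, with 18 of 390 (4.62%) for hPSC-only regions, 17 for shLUC and 23 for shHNRNPU. Clustered protocadherin genes held hPSC-only regions at 38 of 53 (71.7%), below the 82.2% of all genes of 100 to 200 kb, the class of their median length, and hairpin regions at 45 in each list. These genes overlap, so single regions count for several of them.

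**Figure D5:**
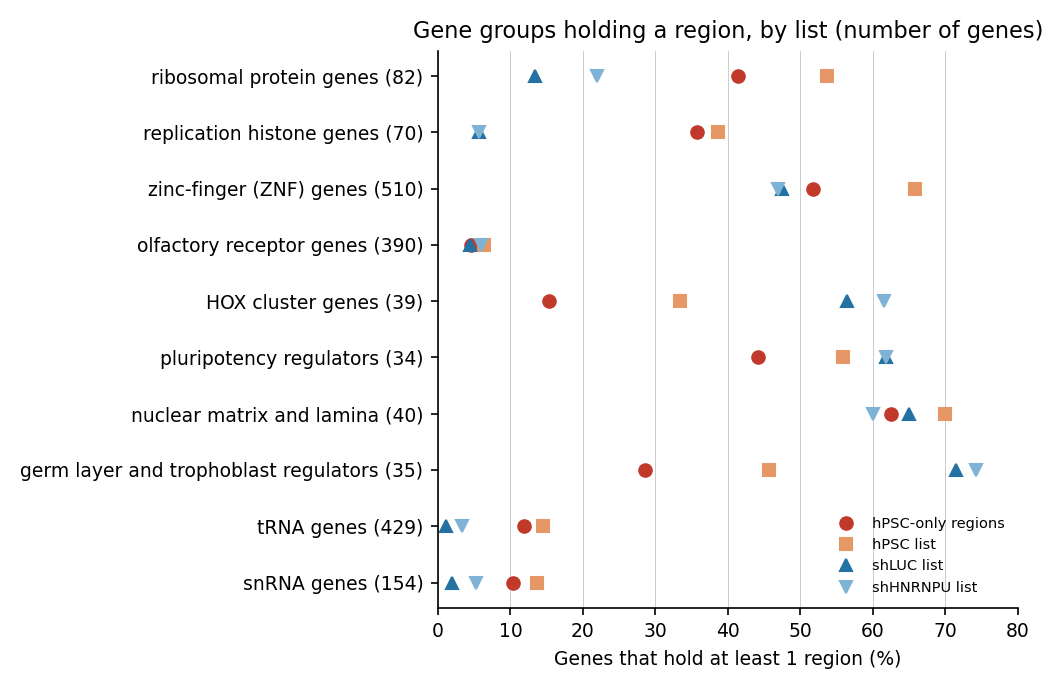
Share of genes in each group that hold at least 1 region (x axis, %), for hPSC-only regions and for the whole hPSC, shLUC and shHNRNPU lists (number of genes in brackets, 1 list per group, so no error bars). Ribosomal protein, histone, ZNF, tRNA and snRNA genes have both hPSC points to the right of both hairpin points. HOX genes, germ layer genes and pluripotency regulators have them to the left.

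Among non-coding genes, more tRNA and snRNA genes held a region in the hPSC list than in either hairpin list, a difference that was not tested. These types were picked after the values of all gene types were seen. For comparison, 19 of 122 protein-coding genes up to 500 bp (15.6%) held an hPSC-only region, as did 1.46% of miRNA genes and 0.33% of snoRNA genes. The 122 include many of the 70 replication histone genes, whose median length was 0.49 kb and of which 35.7% held one. Median lengths were 0.073 kb for tRNA genes and 0.12 kb for snRNA genes. Of 429 tRNA genes, 51 (11.9%, interval 8.98 to 15.3%) held an hPSC-only region, 62 any hPSC region, 5 a shLUC region and 14 a shHNRNPU region. The 48 hPSC-only regions behind the 51 genes lay on 14 chromosomes, with 16 of the genes on chromosome 6, which carries 151 of the 429. No tRNA gene was held by a region of both hairpin lists that hPSC lacks. Of 154 snRNA genes, 16 (10.4%) held an hPSC-only region, 21 any hPSC region, 3 a shLUC region and 8 a shHNRNPU region. Examples were RNU1-1, RNU2-2, RNU4-2, RNU5A-1 and RNU11 of the spliceosomes, which are mostly products of RNA polymerase II, and RN7SK, the RNA that holds the elongation factor P-TEFb. RPPH1, the RNA of RNase P, and RN7SL1, that of the signal recognition particle, held 1 each too, but RN7SL3, another gene of the latter RNA, held no hPSC region and 1 region of each hairpin list. Many of these genes have near-identical copies, so the placement of their reads, and hence of the regions, is uncertain. Of 18303 lncRNA genes, 4011 (21.9%) held an hPSC-only region. The hPSC list was again the highest, by smaller margins, with 4935 genes, against 4338 in shLUC and 4113 in shHNRNPU.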

How the data were processed

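MAR-seq was performed on 6 samples of H1 cells, 2 per group, and 1 region list per group was deposited. The submitters' processing notes name cutadapt, Bowtie2, SAMtools, MACS2 and deepTools, and the build hg38. Whether replicates were pooled, the calling threshold and the use of the input are not given in the sources used here. The authors' lists hold positions, as chromosome, start and end, and the deposited score was 0 throughout, so no height or p-value per region was used. Depth is unknown.

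From these lists, overlap (at least 1 bp), gaps and gene positions were computed in Python 3.11.15 with numpy 2.4.6, pandas 2.3.3 and scipy 1.17.1, and plotted with matplotlib 3.10.9. Genes and promoters were from RefSeq GRCh38.p14. Exons were not analysed here, and neither were promoters on chromosome 8, so measures from gene starts use 23 chromosomes and 15842 genes (79.1% of 20037). Code was tested on simulated lists. No test was made between conditions.

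The members, gene lists and naming rule were chosen with earlier results of these data known. The rule named listed pluripotency and matrix genes (up to 15 each), the 10 genes with most hPSC-only regions, the 10 with most and no hairpin region, the 5 densest of at least 200 kb, and the 5 fullest windows. Some genes that the rule names are not reported here. Other genes named, among them POU5F1, SOX2, HNRNPU, STAG1, HNRNPK, NCL, RAD21 and the small RNA genes, were chosen after their values were seen. Alternatives were other overlap rules, distances and gene definitions.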

Additional observations from a re-analysis of the deposited data

How the results depend on the processing

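No paired analysis was possible because the deposited lists (1 per group) give no values per sample, so leaving out a replicate was not possible either, and a cutoff by score was not run because the score was 0 throughout. The number of hPSC-only regions was 25774 to 34502 under 6 alternatives, against 32021. The share within 1 kb of a gene end was 23.6% with 5 kb in place of 1 kb, 12.1% with gene starts alone, 21.2% with all genes of the table, 13.2% for regions with no hairpin region within 5 kb, and 16.1% where only overlaps of 50% of both regions counted. Regions of both hairpin lists with no hPSC region within 5 kb had 7.77%. The share in a gene body was 54.2% by any overlap, 49.4% with no hairpin region within 5 kb and 63.6% with all genes. The share of promoter windows was 14.9% with no hairpin region within 5 kb and 22.3% at 50% overlap. Of 43 recomputed values, 19 planned and 24 added after seeing the data, 31 stayed and 12 moved. A count was taken as moved beyond 1.5 times, and a share outside the interval of the main value. Of the 24 added values, 22 changed by less than 1.5 times or their spread, and 2 moved. With no hairpin region within 5 kb, the histone genes were 14 in place of 25 and the germ layer genes 6 in place of 10. The tRNA genes were 36 in place of 51 under that rule, and the ribosomal protein genes 24 in place of 34.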

Other observations

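Of 1560 miRNA hairpins in RefSeq, 24 (1.54%) were touched by an hPSC-only region, and 18 lay whole within one. The whole hPSC list touched 37 hairpins, shLUC 46 and shHNRNPU 43, the lowest count being that of the hPSC list. Among those touched were MIR130B, MIR152 and MIR34B, chosen here after their values were seen. All 82 bases of the MIR130B hairpin and all 87 of MIR152 lay within an hPSC-only region, and 50 of the 84 bases of MIR34B. Their mature sequences follow, from RefSeq GRCh38.p14, with the seed (bases 2 to 8) in capitals, to show that the seeds of miR-130b-3p and miR-152-3p share a run of letters one base apart.
hsa-miR-130b-3p, chr22:21653354-21653375, plus strand: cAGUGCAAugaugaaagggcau
hsa-miR-152-3p, chr17:48037174-48037194, minus strand: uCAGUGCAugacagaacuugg
hsa-miR-34b-5p, chr11:111512950-111512972, plus strand: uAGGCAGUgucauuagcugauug

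Of 1936 windows of 1 Mb with at least 10 hPSC regions, the share that was hPSC-only had a median of 80.8%, with 62.1 and 94.7% as the 5th and 95th percentiles. In 69 windows all hPSC regions were hPSC-only, and the lowest share was 36%.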
